A study of Mus musculus with 30 samples.

Results

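The genes described here are 10 regulators and early genes of red blood cell formation: Klf1, Gata1, Gfi1b, Zfpm1, Epor, Tfrc, Car1, Car2, Alas2 and Ermap. They were chosen by name, for their known roles, and all 10 were found among the 24421 genes of every table. RNA had been sequenced from bone marrow progenitors of mice, sorted by flow cytometry as MPP3 or MPP4, in a study of the transcriptional repressor Bcl11a. There were 30 libraries in 10 groups of 3, and each of 5 tables held a group named T1 and a group named T2. The tables were KOiMOS MPP3 of 3 months, WTiMOS MPP3 of 3 months and of 24 months, and WTiMOS MPP4 of 3 months and of 24 months. The series' design text names the role of Bcl11a within these cells and its overexpression in MPP3, but the labels do not say which groups carry it, nor what T1 and T2 stand for. The sources used here do not state the driver of the genetic change, the number of animals or any pooling, and KOiMOS MPP3 of 24 months was not analysed here. All 10 groups share the tissue and a library kit for small amounts of RNA.

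Gata1 is a zinc finger factor that switches on most red cell genes, with Zfpm1 (also called Fog1) as its bound partner. Klf1 acts after it on globin, heme and membrane genes through CACCC boxes, and Gfi1b is a repressor needed for red cells and platelets. Epor receives erythropoietin, Tfrc takes up iron bound to transferrin, Alas2 starts heme synthesis in red cells, Car1 and Car2 are carbonic anhydrases, and Ermap is a membrane protein of erythroid cells. In the marrow, multipotent progenitors are known to carry low levels of such transcripts before a lineage is fixed. MPP3 are known for myeloid and MPP4 for lymphoid output.

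Promoter sequences are shown for 5 of the genes. Of these, Klf1, Gata1 and Epor rose in all 3 MPP3 tables and Ermap in 2 of them, while Gfi1b rose in 1. Zfpm1 also rose in 1 MPP3 table, and its sequence is not shown. RefSeq promoter windows (GRCm38.p6, 250 bases before to 50 after a start site) matched 8 of the 10 genes (9 windows), namely all but Car1 and Car2. Capitals mark GATA words, which are AGATAA with its form AGATAG together with TGATAA with its form TGATAG, and CACCC words (CCACACCC, CCACGCCC, CCCCACCC or CCCCGCCC) on either strand. The windows lie at chr8:84901732-84902031 (plus strand) for Klf1, chrX:7967861-7968160 (minus) for Gata1, chr9:21963527-21963826 (minus) for Epor, chr4:119189946-119190245 (minus) for Ermap and chr2:28621933-28622232 (minus) for Gfi1b.
Klf1: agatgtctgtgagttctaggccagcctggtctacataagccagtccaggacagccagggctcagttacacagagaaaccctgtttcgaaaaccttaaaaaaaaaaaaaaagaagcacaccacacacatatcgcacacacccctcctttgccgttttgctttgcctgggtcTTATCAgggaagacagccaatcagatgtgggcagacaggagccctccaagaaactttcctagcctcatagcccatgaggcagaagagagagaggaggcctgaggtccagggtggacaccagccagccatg
Gata1: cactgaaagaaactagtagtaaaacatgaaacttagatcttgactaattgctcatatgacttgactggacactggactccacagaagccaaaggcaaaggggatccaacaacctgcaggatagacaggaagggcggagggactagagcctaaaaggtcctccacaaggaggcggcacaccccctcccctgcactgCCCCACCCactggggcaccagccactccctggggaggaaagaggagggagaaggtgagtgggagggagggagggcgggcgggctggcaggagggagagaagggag
Epor: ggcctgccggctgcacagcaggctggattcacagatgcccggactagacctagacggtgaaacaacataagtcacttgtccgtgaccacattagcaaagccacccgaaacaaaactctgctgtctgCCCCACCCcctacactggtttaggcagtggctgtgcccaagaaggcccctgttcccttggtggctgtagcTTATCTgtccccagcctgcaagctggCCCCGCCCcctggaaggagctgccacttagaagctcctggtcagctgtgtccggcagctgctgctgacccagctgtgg
Ermap: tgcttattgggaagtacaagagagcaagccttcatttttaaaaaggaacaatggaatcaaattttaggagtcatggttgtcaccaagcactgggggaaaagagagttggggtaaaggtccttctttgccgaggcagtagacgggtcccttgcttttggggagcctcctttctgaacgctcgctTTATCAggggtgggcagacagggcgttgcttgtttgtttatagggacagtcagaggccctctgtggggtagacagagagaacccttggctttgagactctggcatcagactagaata
Gfi1b: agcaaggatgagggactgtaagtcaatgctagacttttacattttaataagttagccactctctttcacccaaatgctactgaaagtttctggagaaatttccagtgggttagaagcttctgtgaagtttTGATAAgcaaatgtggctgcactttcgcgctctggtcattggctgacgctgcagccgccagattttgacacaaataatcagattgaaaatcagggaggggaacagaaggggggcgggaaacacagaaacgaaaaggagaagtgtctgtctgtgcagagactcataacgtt
A GATA word was found in 5 of the 8 genes: Klf1 at -80 to -75 from the start site, Epor at -54 to -49, Ermap at -67 to -62, Gfi1b at -120 to -115 and Alas2 at -86 to -81. CACCC words were found in 5 of the 8: Gata1, Epor, Zfpm1, Tfrc and Alas2. Words of the 2 kinds did not overlap each other in these windows, but a pair of CACCC words overlapped in Alas2. Of all 32851 windows of 300 bases, 29.8% held a GATA word, 29.7% a CACCC word and 5.33% both. A match describes the letters and is not evidence that a factor binds.

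Values were TPM, a unit that corrects read counts for gene length and scales every library to the same total, so levels of different genes can be compared. The depth behind them is unknown. Libraries held 10519 to 12008 genes at 1 TPM or more. Bcl11a was 70.3 ± 2.48 TPM in T1 and 68.2 ± 3.41 in T2 cells of the KOiMOS table (SD, n = 3), and higher in T2 in the 4 WTiMOS tables. The gate markers Kit, Ly6a, Cd48 and Flt3 were present in every group. The summed TPM of 4 Y-linked genes were 0 in every T1 library of WTiMOS MPP3 of 24 months and of WTiMOS MPP4 of 3 months, and at most 0.184 in T1 of WTiMOS MPP4 of 24 months, against 53.97 to 169 in the T2 libraries of these tables. For every gene of these 3 tables that difference cannot be told apart from the one between T1 and T2. The T1 libraries of WTiMOS MPP3 of 3 months held 64.2 to 78.9 TPM of the same genes. Levels in T1 cells set between ages in MPP3, or between subsets at 3 months, thus carry that difference too. So do the changes from T1 to T2 when set against each other in these comparisons. In KOiMOS all 4 Y-linked genes were called lower in T2 by limma, Eif2s3y with a log2 change of -0.978 (adjusted p = 7.22e-08). In WTiMOS MPP3 of 3 months Eif2s3y alone of the 4 was called, also lower (-0.853, adjusted p = 0.0246). Gata1 and Alas2 lie on the X chromosome, and the part of the Y-linked differences in their values was not tested. In WTiMOS MPP3 of 3 months, T1 replicate 2 held the highest value of its group for 8 of the 10 genes and T2 replicate 1 for 7 of the 10, so changes and steps from that table are also given without both libraries. The labels do not tie replicates to animals, so a p-value here measures only the spread between libraries, which may be technical. Fewer cells of a type and less RNA per cell cannot be told apart in such samples.

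Changes from T1 to T2 are differences of log2(TPM + 1), which understate the change of genes near 0, with the standard error and limma's p adjusted over all genes tested in the table. A gene was tested where it reached 1 TPM in at least 3 of the 6 libraries of the table, and called at an adjusted p below 0.05. The plot of levels by library shows the 10 genes in all groups.

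**Figure D1:**
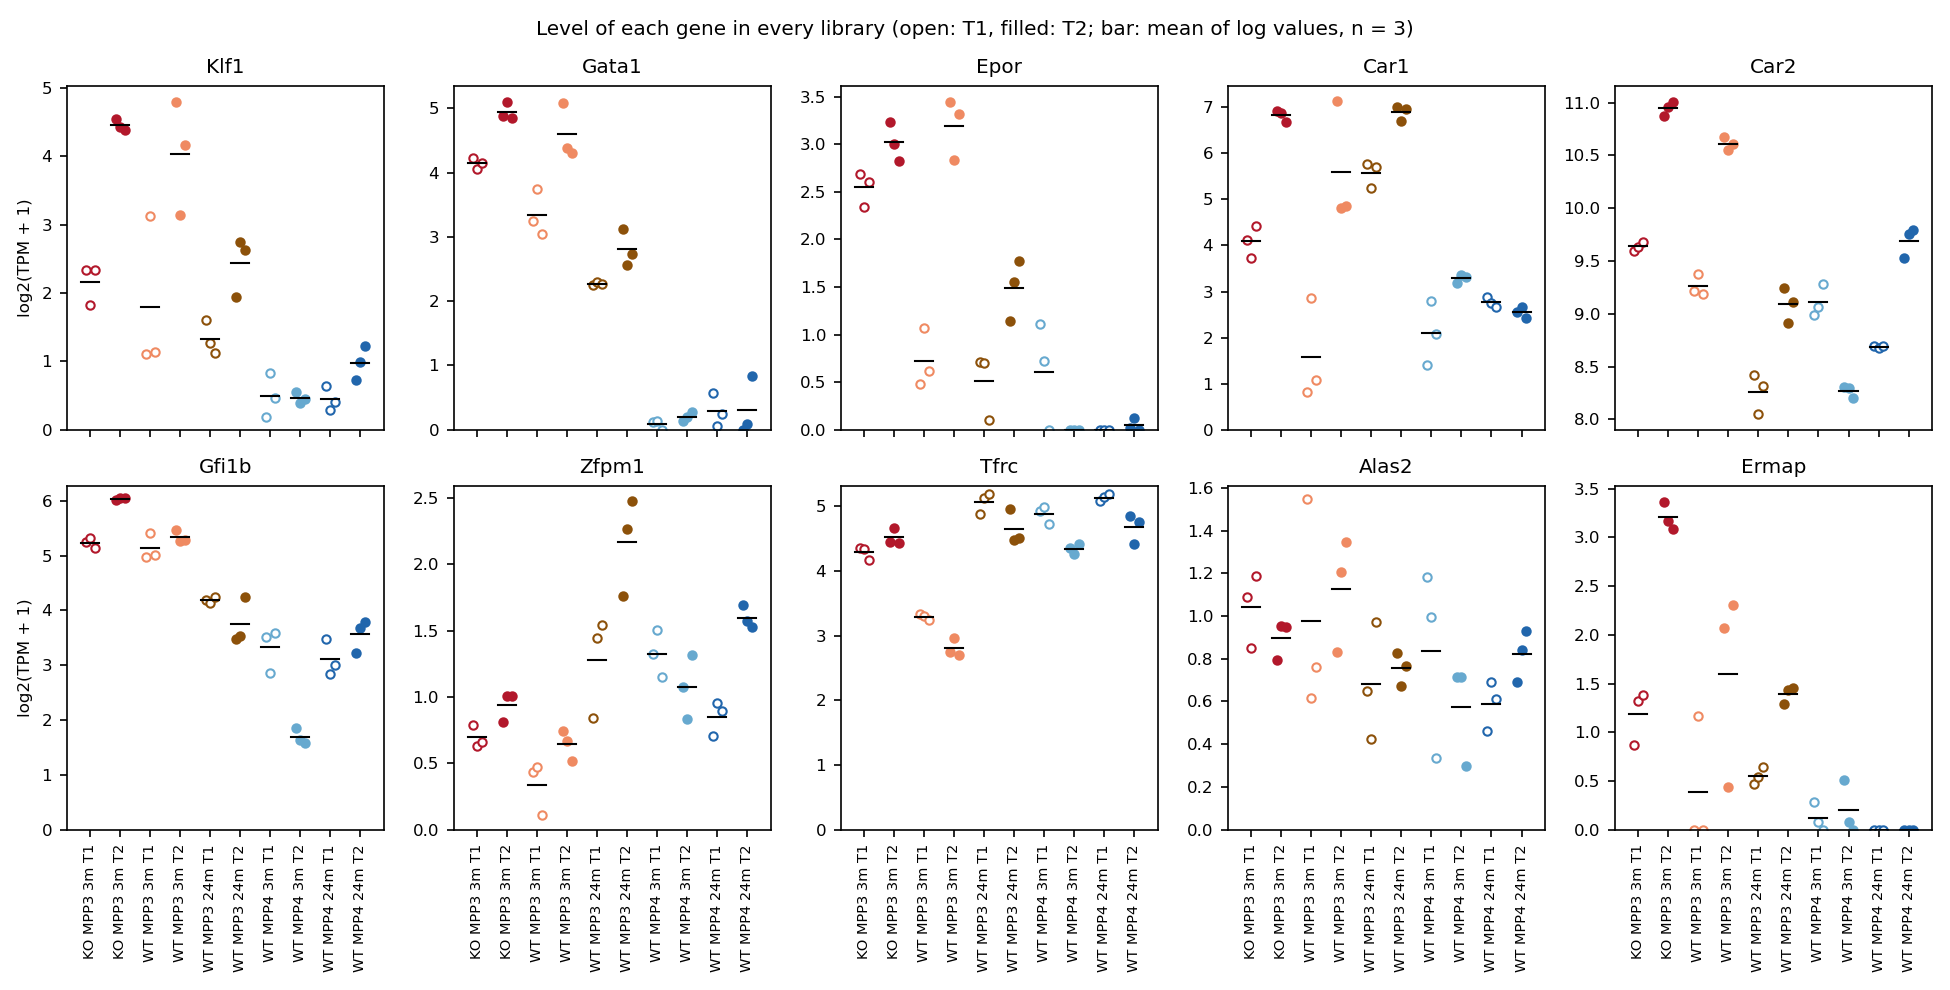
Level of each of the 10 genes in every library as log2(TPM + 1), with T1 libraries as open and T2 libraries as filled circles and the mean of the 3 log values as a bar. The axis of Car2 does not start at 0. Klf1, Gata1, Epor and Ermap stand above 1 TPM mostly in MPP3, while Car2 never falls below 264 TPM.

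Klf1 rose from T1 to T2 in all 3 MPP3 tables. Klf1 in KOiMOS was 4.05, 2.56 and 4.04 TPM in the T1 libraries and 22.3, 20.5 and 20.02 in the T2 libraries (log2 change 2.29, SE 0.133, adjusted p = 1.01e-07). Klf1 in WTiMOS MPP3 of 3 months was 1.16, 7.72 and 1.20 TPM in T1 and 26.9, 7.80 and 16.9 in T2 (2.24, SE 0.598, adjusted p = 0.0404). The highest T1 library nearly reached the lowest T2 library there, and the groups just failed to overlap. The call was lost without T1 replicate 1 (adjusted p = 0.185), T1 replicate 3 (0.148), T2 replicate 1 (0.0693) or T2 replicate 3 (0.115). Without both libraries that stand apart the change was 2.53, with an adjusted p of 0.00162. Klf1 in WTiMOS MPP3 of 24 months was 2.06, 1.41 and 1.18 TPM in T1 and 2.85, 5.71 and 5.18 in T2 (1.10, SE 0.235, adjusted p = 0.00311). In both MPP4 tables it was too low to be tested, from 0.135 to 1.33 TPM. The highest MPP4 library thus lay below the lowest T2 library of MPP3. By group means the order ran from KOiMOS MPP3 T2 (20.95 ± 1.23 TPM, SD, n = 3) and WTiMOS MPP3 T2 of 3 months (17.2 ± 9.53), whose ranges overlapped, to the 4 MPP4 groups, all below 1 TPM.

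Gata1 followed the same direction in MPP3, from higher starting levels. Gata1 in KOiMOS was 17.8, 15.6 and 16.7 TPM in T1 and 28.4, 33.1 and 27.9 in T2 (log2 change 0.80, SE 0.0840, adjusted p = 1.43e-05). Gata1 in WTiMOS MPP3 of 3 months was 8.49, 12.4 and 7.25 TPM in T1 and 33.0, 19.7 and 18.9 in T2 (1.24, SE 0.254, adjusted p = 0.00598). Without both libraries that stand apart the change there was 1.20, with an adjusted p of 0.0106. Gata1 in WTiMOS MPP3 of 24 months was 3.77, 3.91 and 3.84 TPM in T1 and 7.68, 4.93 and 5.67 in T2 (0.53, SE 0.179, adjusted p = 0.0320). The T1 and T2 libraries did not overlap in any of the 3 tables. The 24-month call was lost on leaving out any of 5 of its 6 libraries (adjusted p up to 0.0871). It was also lost after median-ratio rescaling (0.37, adjusted p = 0.113) and after removal of a GC and length trend (0.25, adjusted p = 0.324). In MPP4 Gata1 was between 0 and 0.788 TPM in every library and was not tested. In the order of group means, both T2 groups of 3-month MPP3 came first with overlapping ranges, and the 4 MPP4 groups came last, below every MPP3 library.

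Epor rose in all 3 MPP3 tables, and its log2 change was widest in WTiMOS MPP3 of 3 months. It was 0.395, 1.10 and 0.534 TPM in T1 and 9.85, 6.12 and 8.94 in T2 (log2 change 2.47, SE 0.299, adjusted p = 0.000143). Epor in KOiMOS was 5.45, 4.07 and 5.08 TPM in T1 and 8.38, 7.03 and 6.08 in T2 (0.47, SE 0.132, adjusted p = 0.0143). The groups did not overlap in either table, and the KOiMOS call was lost without T1 replicate 2 (adjusted p = 0.0678) or T2 replicate 1 (0.0735). At 24 months Epor was 0.638, 0.630 and 0.0775 TPM in T1 and 1.21, 1.94 and 2.42 in T2 (0.98, SE 0.232, adjusted p = 0.00563). It passed the filter there through the T2 group alone, and was not testable in the 3-month table once the 2 libraries that stand apart were left out. In MPP4 Epor was listed at 0 in 8 of 12 libraries, among them all T2 libraries of 3 months and all T1 libraries of 24 months, and its highest value was 1.15 TPM.

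Tfrc, which serves iron uptake in all dividing cells as well as in red cells, did not follow the other genes. It was called lower in T2 in 3 of the 5 tables and higher in none. Tfrc in WTiMOS MPP4 of 24 months was 32.9, 34.2 and 35.4 TPM in T1 and 27.8, 20.3 and 26.1 in T2 (log2 change -0.46, SE 0.125, adjusted p = 0.00812). Tfrc in WTiMOS MPP3 of 24 months was 28.5, 33.9 and 35.5 TPM in T1 and 30.04, 21.2 and 21.8 in T2 (-0.42, SE 0.155, adjusted p = 0.0464), and the groups overlapped. That call was lost without T1 replicate 2 (adjusted p = 0.114), T1 replicate 3 (0.166), T2 replicate 2 (0.162) or T2 replicate 3 (0.122). Tfrc in WTiMOS MPP4 of 3 months was 29.5, 30.8 and 25.4 TPM in T1 and 19.4, 18.1 and 20.4 in T2 (-0.54, SE 0.122, adjusted p = 0.000965), a smaller fall than the median of all genes in that table (-0.737). After median-ratio rescaling the sign there turned (0.26, adjusted p = 0.0671). Tfrc in WTiMOS MPP3 of 3 months was 9.11, 8.88 and 8.46 TPM in T1 and 5.72, 6.80 and 5.49 in T2, without overlap, but the change of -0.49 (SE 0.214) had an adjusted p of 0.149 (-0.46, adjusted p = 0.334, without both libraries that stand apart). Tfrc in KOiMOS was 19.4, 19.3 and 16.9 TPM in T1 and 20.8, 24.5 and 20.7 in T2 (0.23, SE 0.0878, adjusted p = 0.0544), just outside the threshold. The call was made without T2 replicate 3 (adjusted p = 0.0490) and after median-ratio rescaling (0.27, adjusted p = 0.0208).

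Gfi1b was called in opposite directions in 2 tables, higher in T2 of KOiMOS and lower in T2 of WTiMOS MPP4 of 3 months. Gfi1b in KOiMOS was 36.95, 38.9 and 34.0 TPM in T1 and 63.5, 65.1 and 65.2 in T2 (log2 change 0.80, SE 0.0617, adjusted p = 9.02e-07). Gfi1b in WTiMOS MPP4 of 3 months was 10.5, 6.23 and 11.1 TPM in T1 and 2.61, 2.11 and 1.99 in T2 (-1.63, SE 0.201, adjusted p = 3.87e-06). Neither pair of groups overlapped, and the MPP4 change stayed negative after median-ratio rescaling and after removal of the GC and length trend, as the plot of settings shows. Gfi1b in WTiMOS MPP3 of 3 months was 30.6, 41.3 and 31.1 TPM in T1 and 42.9, 37.7 and 37.8 in T2, with overlap (0.21, SE 0.157, adjusted p = 0.422, and 0.28, adjusted p = 0.343, without both libraries that stand apart). Gfi1b in WTiMOS MPP3 of 24 months was 17.2, 16.5 and 17.9 TPM in T1 and 10.2, 10.6 and 17.9 in T2 (-0.43, SE 0.190, adjusted p = 0.0898). T2 replicate 3 sat with the T1 libraries there, and without it the change was -0.67 (adjusted p = 0.00452). Gfi1b in WTiMOS MPP4 of 24 months was 10.2, 6.12 and 6.998 TPM in T1 and 8.31, 11.7 and 12.8 in T2 (0.46, SE 0.198, adjusted p = 0.0621). That change was called without T1 replicate 1 (0.64, adjusted p = 0.0177) or T2 replicate 1 (0.63, adjusted p = 0.0165).

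Zfpm1 was low throughout, from 0.0789 to 4.55 TPM, and had its highest group mean in T2 cells of WTiMOS MPP3 of 24 months. There it was 0.788, 1.72 and 1.91 TPM in T1 and 2.38, 3.81 and 4.55 in T2 (log2 change 0.89, SE 0.243, adjusted p = 0.0120). The call was lost without T1 replicate 1 (0.67, adjusted p = 0.0601) and with the GC and length trend removed (0.47, adjusted p = 0.0822). Zfpm1 in WTiMOS MPP4 of 24 months was 0.627, 0.937 and 0.861 TPM in T1 and 2.23, 1.98 and 1.88 in T2 (0.75, SE 0.174, adjusted p = 0.00391), without overlap, but the change fell to 0.10 (adjusted p = 0.728) with the GC and length trend removed. It passed the filter there through T2 alone and so had to differ, and its call stands as no support. In WTiMOS MPP4 of 3 months the groups overlapped at 1.502, 1.83 and 1.22 TPM in T1 and 1.10, 0.780 and 1.49 in T2 (-0.25, SE 0.200, adjusted p = 0.255). With the GC and length trend removed that change was 0.70 (adjusted p = 0.00979). Zfpm1 was not tested in the 3-month MPP3 tables, where its highest T1 library held 0.728 TPM. The annotated gene overlaps Gm20388 on the same strand, as Car1 overlaps Gm16399, and the sources used here do not say how shared reads were counted.

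**Figure D2:**
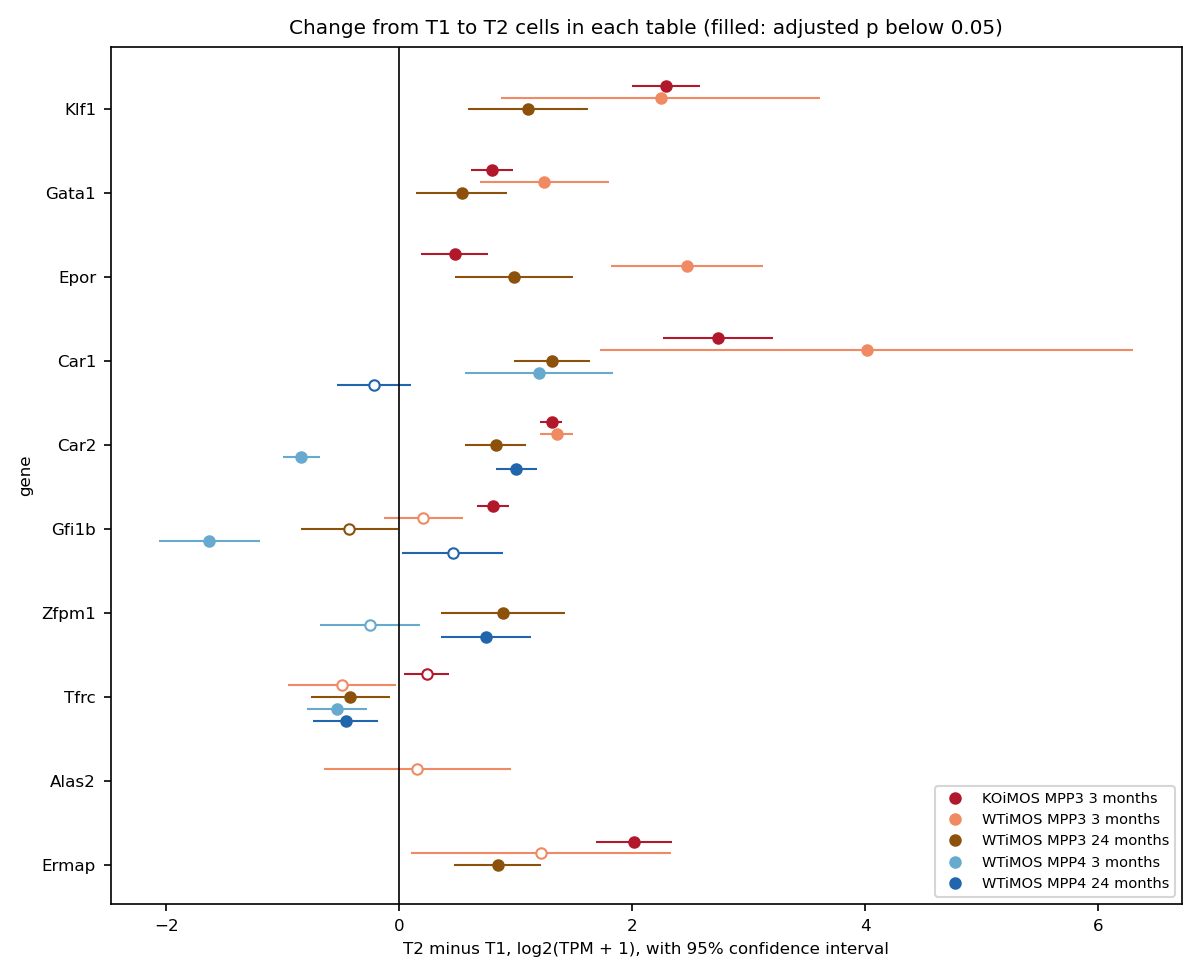
Change from T1 to T2 in log2(TPM + 1) with its 95% confidence interval for each gene and table in which it was tested. Filled circles are changes with an adjusted p below 0.05, and the intervals of Klf1 and Car1 in WTiMOS MPP3 of 3 months are the widest.

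Car2 was the most abundant member in every library and made up 73.4% to 95.4% of the summed TPM of the 10 genes. Car2 in KOiMOS was 773.6, 792.9 and 820.6 TPM in T1 and 1869, 1983 and 2059 in T2 (log2 change 1.31, SE 0.0449, adjusted p = 1.15e-09). Car2 in WTiMOS MPP3 of 3 months was 594.5, 663.6 and 581.3 TPM in T1 and 1636, 1495 and 1560 in T2 (1.35, SE 0.0629, adjusted p = 5.55e-08). Without both libraries that stand apart its change was 1.38 (adjusted p = 1.43e-07). In both tables the lowest T2 library was more than double the mean of T1. Car2 in WTiMOS MPP3 of 24 months was 342, 264 and 318 TPM in T1 and 606, 480.5 and 552 in T2 (0.83, SE 0.121, adjusted p = 0.000290). Car2 in WTiMOS MPP4 of 24 months was 414, 407 and 414 TPM in T1 and 735, 861 and 887 in T2 (1.001, SE 0.0792, adjusted p = 8.83e-06). WTiMOS MPP4 of 3 months alone went the other way, with 507.5, 533 and 619.6 TPM in T1 and 316, 314 and 292 in T2 (-0.84, SE 0.0745, adjusted p = 1.40e-07). That fall was close to the median of all genes in its table (-0.737), and after median-ratio rescaling it was -0.01 (adjusted p = 0.914).

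Car1, which lies 77904 bases from Car2 on chromosome 3, rose in 4 of the 5 tables. Car1 in KOiMOS was 16.5, 12.2 and 20.4 TPM in T1 and 119.9, 116.5 and 100.9 in T2 (log2 change 2.73, SE 0.188, adjusted p = 0.000183). Car1 in WTiMOS MPP3 of 3 months was 0.757, 6.29 and 1.12 TPM in T1 and 140.3, 27.0 and 27.9 in T2 (4.01, SE 0.897, adjusted p = 0.0457). A single library was far above the others in each of these groups. The call was lost without T1 replicate 1 (adjusted p = 0.195), T1 replicate 3 (0.173) or T2 replicate 3 (0.0739), and without both libraries that stand apart the change was 3.88 with an adjusted p of 7.51e-06. Car1 in WTiMOS MPP3 of 24 months was 53.8, 36.8 and 51.1 TPM in T1 and 126.4, 103.1 and 123.8 in T2 (1.31, SE 0.149, adjusted p = 4.88e-05). Car1 in WTiMOS MPP4 of 3 months was 1.63, 5.92 and 3.23 TPM in T1 and 8.13, 9.29 and 8.90 in T2 (1.20, SE 0.286, adjusted p = 0.00264), a rise in a table where 72.6% of genes tested were called lower. Car1 in WTiMOS MPP4 of 24 months was 6.39, 5.71 and 5.38 TPM in T1 and 4.87, 5.31 and 4.41 in T2 (-0.22, SE 0.144, adjusted p = 0.195).

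The ratio of Car2 to Car1 within a library is not touched by scaling between libraries, and the plots of levels show its shifts. As log2 it was 5.64 ± 0.352 in T1 and 4.13 ± 0.198 in T2 of KOiMOS (SD, n = 3), and 2.72 ± 0.11 and 2.21 ± 0.0529 in WTiMOS MPP3 of 24 months. In WTiMOS MPP4 of 3 months it was 7.45 ± 0.902 in T1 and 5.13 ± 0.129 in T2. It moved the other way in WTiMOS MPP4 of 24 months, from 6.15 ± 0.124 in T1 to 7.41 ± 0.216 in T2. In each of these 4 tables the 3 T1 libraries lay apart from the 3 T2 libraries. In WTiMOS MPP3 of 3 months it was 8.45 ± 1.53 in T1 and 5.05 ± 1.30 in T2, with the lowest T1 library at 6.72 and the highest T2 library at 5.80. Thus the ratio was lower in T2 in 4 tables and higher in 1. An exact permutation test of 3 against 3 libraries cannot go below a p of 0.10, so none was run.

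Alas2 and Ermap were scarce. Alas2 was between 0.231 and 1.92 TPM in all 30 libraries, and under 1 TPM in 24 of them. It was tested only in WTiMOS MPP3 of 3 months, at 1.92, 0.534 and 0.694 TPM in T1 and 0.779, 1.31 and 1.54 in T2, with overlap (log2 change 0.15, SE 0.369, adjusted p = 0.828, and 0.12, adjusted p = 0.892, without both libraries that stand apart). Its gene overlaps Apex2 on the other strand, and the sources used here do not say whether strand was used in counting. Ermap was 0.830, 1.503 and 1.60 TPM in T1 and 9.29, 8.02 and 7.48 in T2 of KOiMOS (2.02, SE 0.150, adjusted p = 6.82e-07). In WTiMOS MPP3 of 24 months it was 0.382, 0.452 and 0.556 TPM in T1 and 1.45, 1.70 and 1.75 in T2 (0.85, SE 0.173, adjusted p = 0.00241), and it passed the filter there through T2 alone. In WTiMOS MPP3 of 3 months it was listed at 0, 1.25 and 0 TPM in T1 and 3.20, 0.350 and 3.94 in T2 (1.21, SE 0.514, adjusted p = 0.138). Here T1 replicate 2 was above T2 replicate 2, and without T2 replicate 2 the change was 1.80 (adjusted p = 0.0275). It was not testable there without both libraries that stand apart. Ermap was listed at 0 in all 6 libraries of WTiMOS MPP4 of 24 months and was at most 0.423 TPM in MPP4 of 3 months.

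Members called were counted by table beside the share of all genes. In KOiMOS 7 of the 8 members tested were called, all higher in T2, where 36.4% of all genes tested were called, 15.9% higher and 20.4% lower. The libraries of T1 and T2 did not overlap for 9 of the 10 genes, and for 49.3% of all genes tested. The members' median change was 1.06 and that of all genes -0.0425. The 3-month table of WTiMOS MPP3 had 5 of 9 called, all higher, against 14.3% called, 8.39% higher and 5.96% lower, among all genes (medians 1.24 and 0.1). That count was 3 without T1 replicate 1, T1 replicate 3 or T2 replicate 3, and 4 of 7 members tested without both libraries that stand apart. With median-ratio rescaling it was 3, as Klf1 (adjusted p = 0.0535) and Car1 (0.0614) were no longer called. The count of 5 includes Epor, whose T1 mean was 0.676 TPM and which passed the filter through T2. That count thus stands as no support. In WTiMOS MPP3 of 24 months 7 of 9 were called higher and Tfrc lower, against 42% called, 30% higher and 12% lower, among all genes (medians 0.847 and 0.178). That count of 8 was 5 without T2 replicate 1, T2 replicate 2 or T2 replicate 3, and at most 6 with any 1 library left out. It includes Epor and Ermap, which passed the filter through T2 alone and so had to differ, and it stands as no support. In WTiMOS MPP4 of 3 months 4 of 5 were called, Car1 higher and Car2, Gfi1b and Tfrc lower, where 81.3% of all genes were called, 8.71% higher and 72.6% lower. In WTiMOS MPP4 of 24 months 3 of 5 were called, Car2 and Zfpm1 higher and Tfrc lower, where 65.2% of all genes were called, 58.2% higher and 7% lower. Of these, Zfpm1 passed the filter through T2 alone and had to differ. Both MPP4 shares are near the background or below it, so the counts there say nothing particular about these genes.

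The MPP4 tables differed in scale as a whole, and the members' changes there depended on how libraries were scaled. With the TPM as deposited, 10.7% of the called genes of MPP4 of 3 months were higher in T2, and after median-ratio rescaling 48.8% were. In MPP4 of 24 months the share went from 89.3% to 43.7%. In MPP3 it went from 71.4% to 50.1% at 24 months, from 58.4% to 38% at 3 months and from 43.8% to 52.8% in KOiMOS. Under rescaling Gfi1b was still lower and Car1 still higher in T2 of MPP4 of 3 months. Car1 was then called lower in T2 of MPP4 of 24 months (-0.60, adjusted p = 0.00893). In KOiMOS and in WTiMOS MPP3 of 3 months no called member changed direction with scaling or with the GC and length trend removed. In the latter table Klf1 and Car1 lost their calls with rescaling, as given above.

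**Figure D3:**
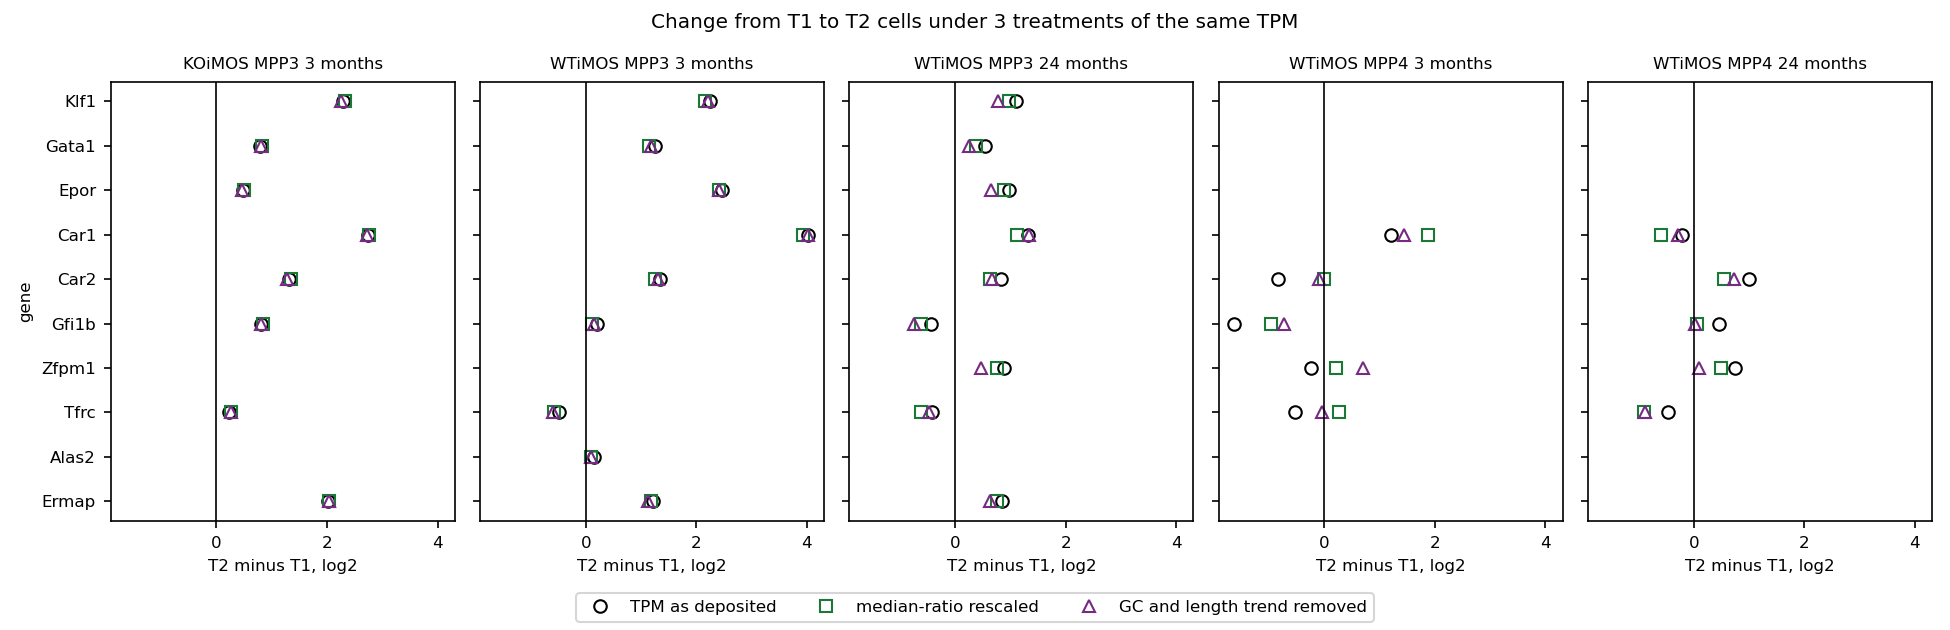
Change from T1 to T2 in log2 for each gene tested, with TPM as deposited (circles), after median-ratio rescaling (squares) and after removal of a GC and length trend (triangles), in the 5 tables. The 3 marks lie together in KOiMOS and in WTiMOS MPP3 of 3 months and spread in MPP4, where Car2 of 3 months moves from -0.84 to -0.01 and Tfrc crosses 0.

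The T2-T1 step of KOiMOS MPP3 was set against that of WTiMOS MPP3 of 3 months, to ask whether the change from T1 to T2 depends on the mouse. Of the 9 members tested 3 had different steps, where 20.9% of all genes did, 7.99% with a higher and 12.9% with a lower step in KOiMOS. That count was 1 without T1 replicate 2 or T2 replicate 3 of WTiMOS. The step of Epor was smaller in KOiMOS by a difference of -1.998 (0.47 against 2.47, SE of the difference 0.319, adjusted p = 0.000337). Its T1 level was 4.87 ± 0.714 TPM in KOiMOS and 0.676 ± 0.373 in WTiMOS (SD, n = 3), while the T2 levels, 7.16 ± 1.16 and 8.30 ± 1.94, overlapped. The step of Gfi1b was larger in KOiMOS (difference 0.60, SE 0.167, adjusted p = 0.0199), and so was that of Tfrc (0.73, SE 0.225, adjusted p = 0.0326). Both of these calls were lost without T1 replicate 2 of WTiMOS (adjusted p = 0.105 and 0.102) or without T2 replicate 3 of WTiMOS (0.0539 and 0.0733). Of the 12 libraries, leaving out any of 3 ended the call of Gfi1b and any of 7 that of Tfrc (adjusted p up to 0.107). Both were also lost without both libraries that stand apart (0.0737 and 0.130), which left Epor (-2.05, adjusted p = 0.00474) and Car1 (-1.15, adjusted p = 0.0338) called. The steps of Klf1 differed by 0.05, with a 95% confidence interval from -1.21 to 1.31, and those of Car2 by -0.04, from -0.205 to 0.116.

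Age was compared within MPP3 and within MPP4 of WTiMOS mice. In MPP3 the step of 24 months holds the large Y-linked difference given above and that of 3 months does not. Age and that difference cannot be told apart there. In MPP3 the steps of Epor (-1.49, SE 0.370, adjusted p = 0.00799) and Car2 (-0.52, SE 0.137, adjusted p = 0.0147) were smaller at 24 than at 3 months, 2 of the 10 members tested, where 17% of all genes had different steps, 10.9% higher and 6.12% lower. That count was 1 without each of the 3 libraries named next. The call of Car2 was lost without T1 replicate 1 (adjusted p = 0.0712), T1 replicate 3 (0.0665) or T2 replicate 2 (0.0597) of 24 months. Epor had a mean below 1 TPM in T1 cells at both ages, so the size of its step depends on the pseudocount. With a pseudocount of 0.1 the count of called steps was 1. Without T1 replicate 2 of 3 months, 4 members were called, Klf1 (-1.80, adjusted p = 0.0205) and Car1 (-3.34, adjusted p = 0.0226) being added. Without both libraries that stand apart 3 were called, Epor (-1.54, adjusted p = 0.0244), Car2 (-0.55, adjusted p = 0.0127) and Car1 (-2.57, adjusted p = 0.000151). In MPP4 the step of Car2 differed by 1.84 (SE 0.109, adjusted p = 6.92e-13), that of Gfi1b by 2.09 (SE 0.283, adjusted p = 3.80e-07), that of Zfpm1 by 0.996 (SE 0.268, adjusted p = 0.00150) and that of Car1 by -1.42 (SE 0.320, adjusted p = 0.000705). These were 4 of 5 members tested, where 84.5% of all genes had different steps, 76.9% higher and 7.52% lower, and the median difference of all genes was 1.16. Of the called members, Car1 alone went against the direction of most genes, and after median-ratio rescaling the difference of Zfpm1 was 0.24 (adjusted p = 0.462).

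The steps of MPP4 were set against those of MPP3 at each age. For 3 months the MPP4 step holds the large Y-linked difference given above and the MPP3 step does not. Subset and that difference cannot be told apart there. At 3 months 6 of the 10 members tested had a smaller or opposite step in MPP4, where 65.4% of all genes had different steps, 7.4% higher and 58% lower. Car2 (-2.19, SE 0.0983, adjusted p = 3.94e-14) and Gfi1b (-1.84, SE 0.256, adjusted p = 1.67e-06) are expressed in both subsets. Klf1 (-2.27), Gata1 (-1.13) and Epor (-3.08) were near 0 TPM in MPP4, so their differences depend on the pseudocount. Those of Klf1 and Gata1 largely restate their steps in MPP3. That of Epor also holds a fall within MPP4, from a mean of 0.601 TPM in T1 to 0 in T2. The call of Car1 (-2.81, adjusted p = 0.0293) was lost without T1 replicate 1 (adjusted p = 0.130) or T1 replicate 3 (0.120) of MPP3, or without T1 replicate 2 of MPP4 (0.0510). All 6 were called without both libraries that stand apart, with Car2 at -2.22 and Car1 at -2.68 (adjusted p = 7.67e-14 and 1.2e-05). At 24 months Car1 had a lower step in MPP4 (-1.53, SE 0.207, adjusted p = 2.34e-05), as did Epor (-0.93, adjusted p = 0.0277) and Ermap (-0.85, adjusted p = 0.0185), and Gfi1b a higher one (0.89, SE 0.275, adjusted p = 0.0246). Epor was at most 0.0934 TPM and Ermap listed at 0 in MPP4 of 24 months, and both passed the filter through T2 cells of MPP3. Their differences thus restate their steps in MPP3 and depend on the pseudocount, since both calls were lost at 0.1 (adjusted p = 0.281 and 0.271). The call of Gfi1b was lost on leaving out any of 6 of the 12 libraries (adjusted p up to 0.0711), with median-ratio rescaling (0.0958) and with no filter (0.109). These were, Epor and Ermap included, 4 of 9 members tested, where 22.8% of all genes had different steps, 18% higher and 4.77% lower. The count was 1 without T2 replicate 2 of MPP3 and 2 without T1 replicate 3 or T2 replicate 3 of MPP3.

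Levels were also compared across tables, within T1 and within T2 cells, but there the table and the group cannot be told apart. In T1 cells of MPP3 of 3 months 5 of 9 members tested were higher in KOiMOS than in WTiMOS, Gata1, Epor, Car1, Car2 and Tfrc, where 66.3% of all genes were called, 38% higher and 28.3% lower. Epor passed the filter there through KOiMOS, so that count stands as no support. Car1 was 16.4 ± 4.08 TPM in KOiMOS and 2.72 ± 3.10 in WTiMOS (SD, n = 3, log2 difference 2.50, SE 0.473, adjusted p = 0.00140). In T2 cells 4 of 8 were higher in KOiMOS, Car2, Gfi1b, Tfrc and Ermap, where 54.8% were called, 25.9% higher and 28.9% lower, and Ermap was 8.26 ± 0.931 against 2.50 ± 1.90 TPM (1.60, SE 0.433, adjusted p = 0.0120). Without T2 replicate 1 of WTiMOS, Klf1 (0.81, adjusted p = 0.0310), Gata1 (0.60, adjusted p = 0.00329) and Car1 (1.99, adjusted p = 3.47e-06) were called higher in KOiMOS too. In T1 cells the same held without T1 replicate 2 of WTiMOS for Klf1 (1.04, adjusted p = 0.00341) and Gfi1b (0.24, adjusted p = 0.0492).

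Levels in MPP3 were then set between ages. In T1 cells Car1 was 47.3 ± 9.15 TPM at 24 months and 2.72 ± 3.10 at 3 months (SD, n = 3, log2 difference 3.99, SE 0.526, adjusted p = 0.000284). In T2 cells its difference of 1.28 was not called (SE 0.743, adjusted p = 0.183), but without T2 replicate 1 of 3 months it was 2.06 (adjusted p = 4.82e-07). In T2 cells Klf1 was 4.58 ± 1.52 TPM at 24 months and 17.2 ± 9.53 at 3 months (-1.59, SE 0.381, adjusted p = 0.00288), and Gata1 6.09 ± 1.42 and 23.9 ± 7.94 (-1.78, SE 0.241, adjusted p = 1.78e-05). With the GC and length trend removed these calls of Klf1 (-0.62, adjusted p = 0.154) and Gata1 (-0.61, adjusted p = 0.0550) were lost, and 3 members were called instead of 7. Tfrc was higher at 24 months in both T1 (1.77, SE 0.135, adjusted p = 9.84e-08) and T2 cells (1.84, SE 0.199, adjusted p = 2.15e-06). Of 6 members tested in T1 cells 2 were higher and 3 lower at 24 months, where 80.6% of all genes were called, 26.3% higher and 54.3% lower. Of 9 in T2 cells 2 were higher and 5 lower, where 74.7% were called, 24.3% higher and 50.4% lower. Those higher include Zfpm1, with means of 3.58 TPM at 24 months and 0.564 at 3 months. It passed the filter through the 24-month group, so that count stands as no support. The medians of all genes were -0.554 and -0.505.

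Between ages in MPP4, Car2 differed in opposite directions in T1 and T2 cells, as did the median of all genes. Car2 was lower at 24 than at 3 months in T1 cells (412 ± 4.34 against 553 ± 58.8 TPM, SD, n = 3, log2 difference -0.42, SE 0.0744, adjusted p = 0.000686) and higher in T2 cells (827 ± 81.2 against 308 ± 13, 1.42, SE 0.0800, adjusted p = 5.48e-09). Those medians were -0.374 in T1 and 0.792 in T2 cells. Gfi1b in T2 cells was 10.96 ± 2.35 TPM at 24 and 2.24 ± 0.327 at 3 months (1.87, SE 0.189, adjusted p = 8.45e-07). In T1 cells 3 of 5 members tested were called, where 62.6% of all genes were, 7.18% higher and 55.4% lower, and 1 was called without T1 replicate 1 or T1 replicate 3 of 3 months, or T1 replicate 2 or T1 replicate 3 of 24 months. In T2 cells 5 of 5 were called, where 81% were, 72.6% higher and 8.33% lower, and 3 without T2 replicate 1 or T2 replicate 2 of 3 months, or T2 replicate 1 or T2 replicate 3 of 24 months. Rescaling turned the sign of Zfpm1 and Tfrc in T2 cells.

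Between subsets, Gata1 was lower in MPP4 than in MPP3 in every comparison. It passed the filter through MPP3 alone and so had to differ, and its calls stand as no support. In T2 cells of 24 months it was 0.285 ± 0.437 TPM in MPP4 and 6.09 ± 1.42 in MPP3 (SD, n = 3, log2 difference -2.50, SE 0.259, adjusted p = 6.36e-05). Car1 was 4.86 ± 0.449 and 117.8 ± 12.8 TPM in the same cells (-4.34, SE 0.134, adjusted p = 1.95e-09), whereas Car2 was higher in MPP4, at 827 ± 81.2 against 546 ± 62.9 TPM (0.60, SE 0.112, adjusted p = 0.00189). At 3 months Gfi1b was lower in MPP4 in both T1 (-1.81, SE 0.199, adjusted p = 3.59e-06) and T2 cells (-3.65, SE 0.180, adjusted p = 1.02e-10), and Tfrc was higher (1.58, SE 0.134, adjusted p = 2.63e-07, and 1.54, SE 0.177, adjusted p = 1.30e-06). At that age 5 of 7 members tested were called in T1 cells, where 77.3% of all genes were, 33.3% higher and 44% lower. That count was 3 without T1 replicate 1 or T1 replicate 3 of MPP3, or T1 replicate 1 of MPP4. In T2 cells 7 of 7 were called, where 82.7% were, 20.5% higher and 62.2% lower, and 4 without any 1 of the T2 replicates of MPP3. In T2 cells of 24 months 6 of 9 members tested were called, where 38.8% of all genes were, 31.6% higher and 7.19% lower, and 3 without T2 replicate 2 or T2 replicate 3 of MPP3. In T1 cells 5 of 6 were called, where 24.7% of all genes were, 14.6% higher and 10.1% lower, and 3 without any of the 3 T1 replicates of MPP3. Members that passed the filter only through MPP3 had to differ, so these counts do not stand as support.

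Within tables, Klf1 varied from library to library with Car1, Ermap and Gata1. Taken as deviations of log2(TPM + 1) from the mean of the table, over all 30 libraries, Pearson's r was 0.902 for Klf1 with Car1, 0.902 with Ermap, 0.853 with Gata1, 0.801 with Car2 and 0.766 with Epor. It was 0.321 with Gfi1b, -0.366 with Tfrc and -0.11 with Alas2. These deviations hold the difference between T1 and T2 as well as that between replicates, and libraries of a table share their processing, so the values are a description. Among 9231 genes with a mean of at least 5 TPM, those closest to Klf1 by the same measure were Fgf3 (r = 0.853), Wdfy1 (0.852) and Dok3 (0.839). Closest to Gata1 were Tgm2 (0.799), Fgf3 (0.783) and Irak1bp1 (0.777), and closest to Epor were Serpina3g (0.836), Slc18a2 and Tha1 (both 0.823).

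**Figure D4:**
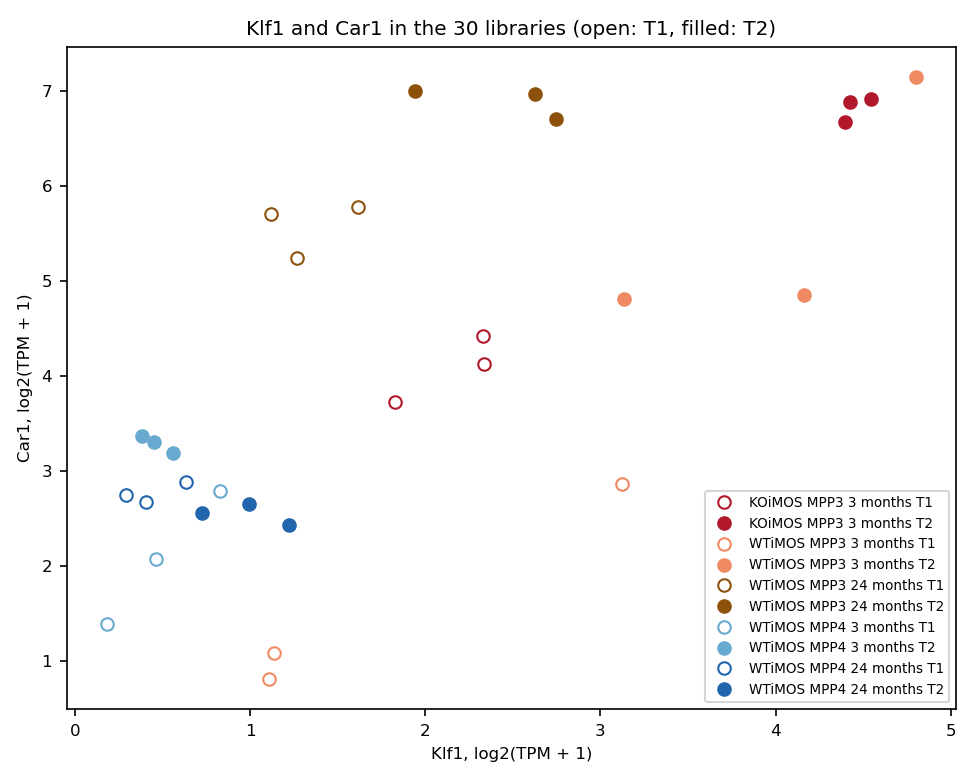
Klf1 against Car1 in the 30 libraries, both as log2(TPM + 1), with T1 libraries open and T2 libraries filled and a colour for each table. At 24 months MPP3 libraries hold 36.8 to 126.4 TPM of Car1 with at most 5.71 TPM of Klf1, while in the 3-month MPP3 tables Car1 above 100 TPM is seen with Klf1 at 20.02 TPM or more.

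Other genes of the red cell program were described as lists by their counts and median changes. List genes that passed the filter through T2 alone had to differ, and counts that hold them stand as no support. Among all genes 15.9% were called higher and 20.4% lower in KOiMOS. The shares were 8.39% and 5.96% in WTiMOS MPP3 of 3 months and 30% and 12% at 24 months. In MPP4 they were 8.71% and 72.6% at 3 months and 58.2% and 7% at 24 months. These shares stand beside every list below. The median change of all genes was -0.0425 in KOiMOS, 0.1 and 0.178 in WTiMOS MPP3 of 3 and 24 months, and -0.737 and 0.435 in MPP4 of 3 and 24 months. Globins were called higher in T2 cells for 4 of 6 tested in KOiMOS (median 3.44), 1 of 5 in WTiMOS MPP3 of 3 months (0.75), 4 of 6 at 24 months (4.56), 4 of 6 in MPP4 of 3 months (2.67) and 4 of 5 at 24 months (1.71), and 0 were called lower in any table. Their summed TPM were 158.2 to 168 in T1 and 1947 to 2098 in T2 libraries of KOiMOS, and 12.5 to 18.3 and 778.5 to 1094 in MPP3 of 24 months. Globin genes have near-identical copies, and single values of them are uncertain. In MPP4 of 3 months 4 globin genes thus rose while Gfi1b and Car2 fell as deposited and Klf1 and Gata1 stayed below 1 TPM.

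Of other early erythroid genes, 8 of 10 tested were called higher and 0 lower in KOiMOS (median 0.73). Cldn13 rose there from 0.256 ± 0.288 to 10.4 ± 1.27 TPM (SD, n = 3) and Sphk1, a sphingosine kinase, from 1.24 ± 0.257 to 10.4 ± 1.53. Cldn13 passed the filter there through T2 alone and so had to differ, and that count stands as no support. In WTiMOS MPP3 of 3 months 4 of 8 were higher and 1 lower (median 0.947), and Hemgn, a nuclear protein of blood progenitors, rose from 17.6 ± 2.23 to 44.7 ± 4.16 TPM. In MPP3 of 24 months 5 of 9 were higher and 2 lower (0.602), and in MPP4 0 of 5 were higher and 1 lower at 3 months (-0.231) and 2 of 5 higher at 24 months (0.264). Red cell membrane genes were called higher in 7 of 8 and lower in 1 of 8 in KOiMOS (median 1.65), with Rhd, a blood group protein, from 0.823 ± 0.376 to 9.51 ± 0.958 TPM and the water channel Aqp1 from 9.06 ± 1.23 to 27.7 ± 0.581. In MPP3 of WTiMOS 1 of 5 was higher at 3 months (median 0.881) and 2 of 3 at 24 months (0.929), and 0 were lower.

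Heme synthesis genes were called higher in 6 of 10 and lower in 1 of 10 in KOiMOS (median 0.288). The counts were the same in MPP3 of 24 months (0.499), and 3 and 1 of 10 in WTiMOS MPP3 of 3 months (0.233). Among all genes 15.9% were called higher and 20.4% lower in KOiMOS, against 30% and 12% in MPP3 of 24 months. In WTiMOS MPP3 of 3 months these shares were 8.39% and 5.96%. Alas1, the form of the first enzyme of heme synthesis that is made in all cells, rose from 73.9 ± 0.865 to 99.6 ± 5.22 TPM in KOiMOS but fell from 178.9 ± 8.98 to 135.1 ± 11.8 in WTiMOS MPP3 of 3 months and from 50.04 ± 3.73 to 15.6 ± 0.0498 at 24 months (SD, n = 3). All 10 were lower in MPP4 of 3 months (median -1.15) and 8 of 10 higher in MPP4 of 24 months (0.666), the directions of most genes of those tables. Iron genes showed 2 higher and 2 lower of 10 in KOiMOS (median -0.0395), 2 and 1 of 10 in WTiMOS MPP3 of 3 months (0.274) and 5 and 2 of 10 at 24 months (0.283). The second transferrin receptor, Tfr2, fell in KOiMOS from 126.4 ± 2.55 to 99.6 ± 6.12 TPM and rose in WTiMOS MPP3, from 53.9 ± 3.94 to 101.6 ± 9.11 TPM at 3 months and from 6.70 ± 0.819 to 16.1 ± 0.440 at 24 months, where Tfrc was not called higher. Genes of Epor signalling showed 1 higher and 4 lower of 11 in KOiMOS (median -0.117), 1 higher of 11 in WTiMOS MPP3 of 3 months (0.0268), and 4 higher and 1 lower of 11 at 24 months (0.15), where 36.4%, 14.3% and 42% of all genes were called.

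Of 12 factors that work with or against Gata1, 2 were higher and 5 lower in T2 of KOiMOS (median -0.146), 4 and 2 in WTiMOS MPP3 of 3 months (0.161) and 7 and 1 at 24 months (0.453). Tal1, which binds DNA with Gata1, rose from 18.0 ± 0.728 to 25.7 ± 0.283 TPM in KOiMOS. Gata2, which precedes Gata1 at many sites, rose from 48.9 ± 7.62 to 93.2 ± 9.06 TPM in WTiMOS MPP3 of 3 months and from 12.04 ± 2.46 to 39.9 ± 3.28 at 24 months (SD, n = 3). Spi1, a myeloid factor that opposes Gata1, fell from 91.9 ± 12.5 to 38.7 ± 4.84 TPM in MPP4 of 3 months (log2 change -1.23), where the median of all genes was -0.737. It was also called lower in WTiMOS MPP3 of 3 months (-0.267, adjusted p = 0.0403), and it was not called in the other tables.

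**Figure D5:**
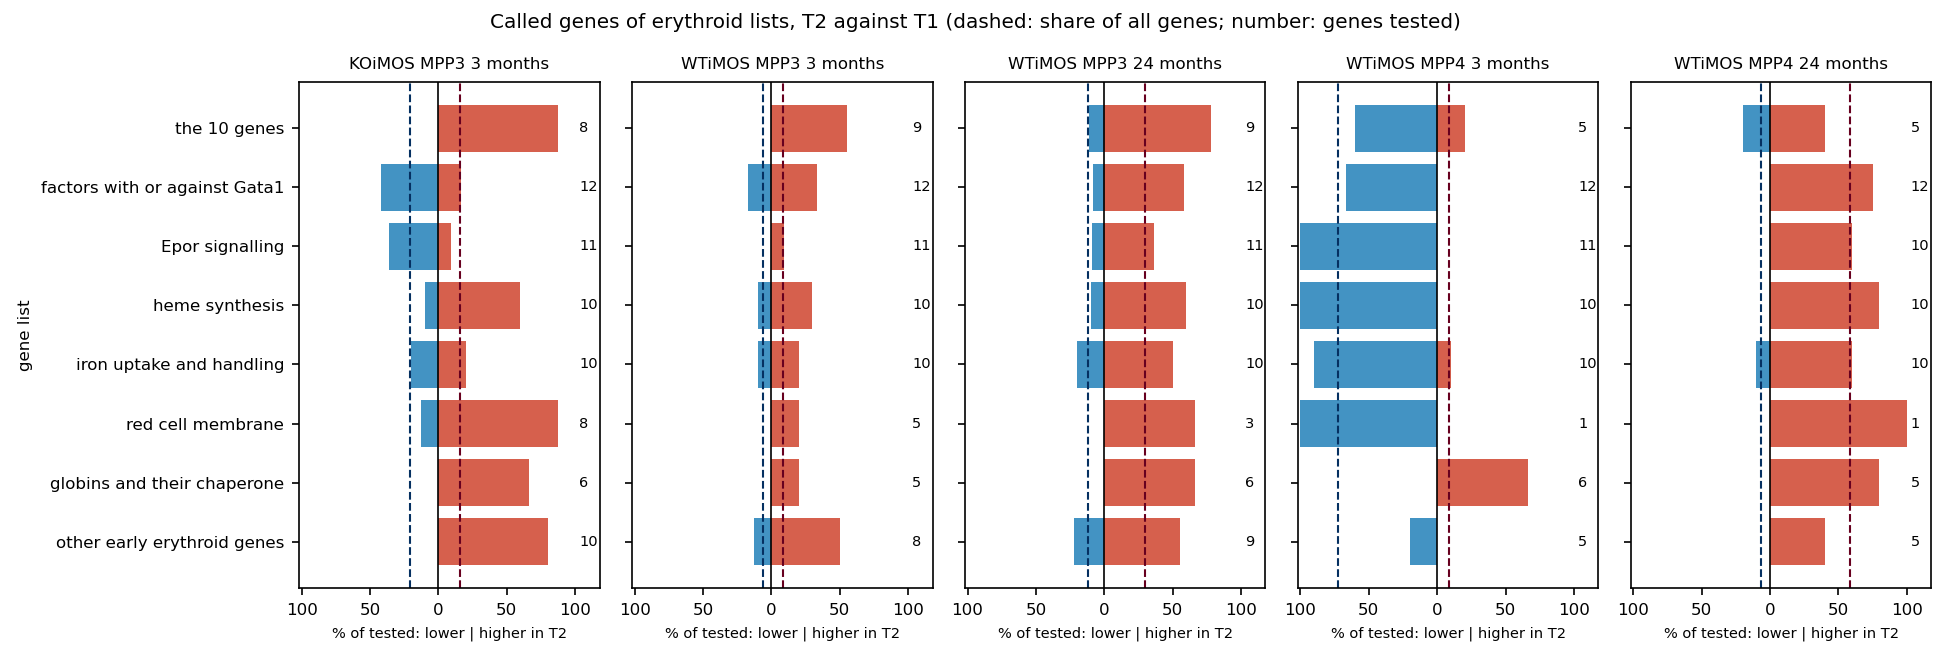
Share of the tested genes of each erythroid list called higher (red, to the right) or lower (blue, to the left) in T2, by table, with the number tested at the right. Dashed lines give the shares of all genes called higher and lower, and in MPP4 of 3 months all 10 heme genes and all 11 of Epor signalling were called lower and 4 of 6 globins higher.

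Markers of other lineages and of stem cells moved beside these results, and are given here for the MPP3 tables only. Among all genes 15.9% were called higher and 20.4% lower in T2 of KOiMOS. The shares were 8.39% and 5.96% in WTiMOS MPP3 of 3 months, and 30% and 12% at 24 months. Markers that passed the filter through T2 alone had to differ, and counts that hold them stand as no support. In KOiMOS 9 of 11 mast cell and basophil markers were higher in T2 and 0 lower, and their summed TPM were 464.6 to 581.7 in T1 and 4720 to 5094 in T2 libraries. Cpa3, a mast cell protease, was 247 ± 11.6 TPM in T1 and 973.5 ± 68.9 in T2 (SD, n = 3). In WTiMOS MPP3 their sums were 299 to 334 in T1 and 205 to 444 in T2 at 3 months, and 2392 to 2633 in T1 and 870 to 991 in T2 at 24 months, with 1 of 8 markers tested higher and 1 lower at 3 months, and 6 of 10 higher and 4 lower at 24 months. Cpa3 fell there, from 235 ± 12.7 to 135 ± 12.2 TPM and from 2037 ± 134 to 383 ± 35.6. Megakaryocyte and platelet markers had sums of 474 to 482.5 in T1 and 455 to 494 in T2 of KOiMOS, 220 to 242 and 447 to 502 in WTiMOS MPP3 of 3 months, and 49.7 to 56.1 and 112 to 130 at 24 months. Macrophage markers, from cells that can nurse red cell precursors in marrow, had sums of 158 to 169 in T1 and 227 to 252 in T2 of KOiMOS, 58.5 to 86.6 and 129 to 171 in WTiMOS MPP3 of 3 months, and 23.4 to 28.1 and 68.8 to 88.7 at 24 months. Of these, 6 of 9, 5 of 9 and 6 of 8 tested were higher in T2, and 1, 1 and 2 lower. B cell markers were lower in 5 of 6 tested in KOiMOS, in 7 of 7 in WTiMOS MPP3 of 3 months (sums of 802.3 to 1032 in T1 and 193.1 to 251.7 in T2) and in 4 of 7 at 24 months, with 1 higher. Neutrophil and monocyte markers were higher in 7 of 9 in KOiMOS, whereas 1 was higher and 4 lower of 10 in WTiMOS MPP3 of 3 months, and 1 higher and 8 lower of 10 at 24 months (11880 to 13380 and 2139 to 2551). Stem cell genes showed 3 higher and 3 lower of 9 in KOiMOS, and were higher in 4 of 10 in WTiMOS MPP3 of 3 months (223.6 to 242.5 and 423.9 to 480) and in 7 of 7 at 24 months (36.1 to 47.1 and 141.2 to 159.3). The part of these cell types in the members' changes was not tested. Of 20 proliferation genes, 19 were higher in T2 of KOiMOS, 1 was higher and 7 were lower in WTiMOS MPP3 of 3 months, and 4 were higher and 5 lower at 24 months.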

How the data were processed

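Total RNA of sorted marrow progenitors was turned into libraries with a low-input cDNA synthesis and amplification kit, per the labels' protocols. The authors deposited TPM per gene. HISAT2, StringTie, featureCounts and DESeq2 are named with mm10, per the submitters' processing notes. The sources used here state neither which of them gave the TPM nor their versions, the use of strand or the read depth. All columns were placed in groups by the labels, with 0 left over.

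The 10 genes and all lists were chosen with earlier results of these data known. Genes were named by rule: all 10 in every group, up to 3 genes of smallest p from each other list and comparison, and the 3 genes most like Klf1, Gata1 and Epor. The 6 libraries of a table were fitted alone as log2(TPM + 1) in R 4.3.3 with limma 3.58.1 (trend and robust moderation), for genes that reached 1 TPM in 3 or more of them. P-values were adjusted by the method of Benjamini and Hochberg over all genes tested and called below 0.05. Differences between T2-T1 steps came from separate fits with Satterthwaite degrees of freedom. Levels across tables were fitted on the 6 libraries compared. The scripts were tested on simulated data. Other settings were median-ratio rescaling, a pseudocount of 0.1, no filter on low values, 1 fit of all 30 libraries, replicate number as a block and each library left out. Removal of a GC and length trend (values for 90.3% of genes) and omission of both libraries of WTiMOS MPP3 of 3 months that stand apart were chosen after seeing the data. Positions came from GENCODE vM21 and promoter windows from RefSeq on GRCm38.p6.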

Additional observations from a re-analysis of the deposited data

Results flagged for a closer look

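In 19 cases the T2-T1 step of a gene differed between groups by the test of the difference itself, in log2(TPM + 1). KOiMOS against WTiMOS MPP3 gave Epor (-1.998), Gfi1b (0.60) and Tfrc (0.73). The comparison of 24 against 3 months gave Epor (-1.49) and Car2 (-0.52) in MPP3, and Car1 (-1.42), Car2 (1.84), Gfi1b (2.09) and Zfpm1 (0.996) in MPP4. MPP4 against MPP3 gave Klf1 (-2.27), Gata1 (-1.13), Epor (-3.08), Car1 (-2.81), Car2 (-2.19) and Gfi1b (-1.84) at 3 months, and Epor (-0.93), Car1 (-1.53), Gfi1b (0.89) and Ermap (-0.85) at 24 months. Klf1, Gata1 and Epor at 3 months, and Epor and Ermap at 24 months, were near 0 TPM in MPP4. These differences largely restate the steps in MPP3, but that of Epor at 3 months also holds its fall within MPP4. Groups of 3 libraries are too small for a test of single outlying libraries. The comparisons share tables: WTiMOS MPP3 of 3 months enters 3 of the 5 sets of differences, and its libraries that stand apart touch all 3.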

How the results depend on the processing

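Of 274 counts of called members recomputed under other settings, 228 stayed within 1.5 times the reported count and 46 did not. The cause of the moves was not tested. With median-ratio rescaling 3 members instead of 5 were called in WTiMOS MPP3 of 3 months and 2 instead of 4 in WTiMOS MPP4 of 3 months. With a pseudocount of 0.1, and likewise with no filter, 1 instead of 2 steps differed between ages in MPP3, and 2 instead of 4 between MPP4 and MPP3 at 24 months. With the GC and length trend removed, called levels between ages fell to 3 from 7 in T2 cells of MPP3, to 1 from 3 in T1 and to 3 from 5 in T2 cells of MPP4, and called steps between MPP4 and MPP3 at 3 months to 3 from 6.

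Signs turned in 13 cases in which the gene was called under the main or the other setting. Turns of sign without a call were not counted. In T2 against T1 of MPP4 of 3 months Tfrc became 0.26 (rescaling) and Zfpm1 0.70 (GC and length). Between ages in T1 cells of MPP3 Gata1 became 0.31 and Gfi1b 0.54 (GC and length). For MPP4 steps between ages Tfrc became -1.17 (rescaling) and -0.83 (GC and length) and Zfpm1 -0.55 (GC and length). For MPP4 levels between ages Zfpm1 became 0.25 in T1 cells and -0.36 in T2 cells, and Tfrc -0.31 in T2 cells (GC and length), and with rescaling Zfpm1 -0.013 and Tfrc -0.53 in T2 cells. The step of Tfrc between MPP4 and MPP3 at 3 months became 0.90 (rescaling).

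Replicate numbers did not pair the libraries: same-numbered T1 and T2 libraries had deviations correlated between -0.197 and 0.127, and no table had all 3 pairs over 0.1. With the replicate block 3 members instead of 5 were called in WTiMOS MPP3 of 3 months, where Klf1 (adjusted p = 0.184) and Car1 (0.145) were lost by limma.

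With each library left out in turn, called members numbered 6 to 8 in KOiMOS, 3 to 6 in WTiMOS MPP3 of 3 months and 5 to 6 of 24 months, 4 in MPP4 of 3 months and 2 to 4 of 24 months. Called steps numbered 1 to 3 for KOiMOS against WTiMOS, 1 to 4 between ages in MPP3, 4 in MPP4, 5 to 7 between subsets at 3 months and 1 to 4 at 24 months. Called levels in T1 and in T2 cells numbered 5 to 7 and 4 to 7 for KOiMOS against WTiMOS, 5 and 6 to 8 between ages in MPP3, and 1 to 3 and 3 to 4 in MPP4. Between subsets they numbered 3 to 4 and 4 to 6 at 3 months, and 3 to 5 and 3 to 6 at 24 months. The read depth is unknown, so no limit can be set for genes listed at 0.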
